A study of Mus musculus with 40 samples.

Results

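The transcripts of 7 secreted metalloproteases of the ADAMTS family, Adamts1, Adamts2, Adamts4, Adamts5, Adamts8, Adamts9 and Adamts15, were followed in the mouse aorta over the first day of angiotensin II (Ang-II) infusion. The 7 genes were taken by symbol, and all 7 were present among the 17402 genes of a genotype experiment and among the 15399 genes of a cyclosporin A (CsA) experiment. They were tested with all 14424 and 13738 protein-coding genes that passed a filter on low values, and all 7 passed it in both experiments. The genotype experiment compared male mice with a floxed CnB1 gene (Ppp3r1, the regulatory subunit of the phosphatase calcineurin, Cn) that per the labels lacked Cre (Cn-Ctl, CnB1-flox;Myh11-CreERT2-neg) with males that carried it (SM-Cn-/-, CnB1-flox;Myh11-CreERT2-pos). Myh11-CreERT2 is a tamoxifen-inducible Cre driven by the smooth muscle myosin heavy chain promoter, so that endothelium and other cells of the wall keep calcineurin. Mice of both genotypes had received tamoxifen, 1 mg daily for 5 days at 10 to 12 weeks of age, and were used 6 weeks later, without Ang-II or at 2, 6 or 24 h of Ang-II infusion from a minipump (1 µg/kg/min). The CsA experiment compared C57BL/6J males (WT) with C57BL/6J males given CsA, a drug that blocks the phosphatase activity of calcineurin, at 5 mg/kg/day over 5 days. Aortas of both were taken without Ang-II or at 2 or 24 h of the same Ang-II dose. WT mice carried no pump before Ang-II, so that CsA and its pump cannot be told apart. Ang-II pumps were implanted by surgery under anaesthesia. The methods describe controls operated without a pump, but not the hour of surgery for the untreated aortas used here. The part of recent surgery in the 2 h values was not tested. Mice of the CsA experiment were 10 to 12 weeks old when CsA pumps were implanted. Those of the genotype experiment had that age at tamoxifen, 6 weeks before use, so that age differed between the experiments.

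Each of the 40 libraries pooled 3 perfused aortas stripped of adventitia and perivascular tissue. Groups held 3 libraries, except untreated Cn-Ctl and Cn-Ctl at 24 h, with 2 each (replicates 2 and 3). For untreated Cn-Ctl the authors had set aside 1 library that stood apart. Treated Cn-Ctl, WT and CsA mice had been kept only when systolic pressure passed 130 mmHg, while SM-Cn-/- mice treated in parallel were all kept, so that genotype and this selection cannot be told apart after Ang-II. Libraries held 2.73 M to 10.3 M assigned reads (M, 1e6) in the genotype experiment and 19.0 M to 38.9 M in the CsA experiment. The mean correlation of a library with others of its group was 0.907 or more on the log2 scale. Smooth muscle markers were abundant in every group, with 8 of 8 present and a summed signal of 16623 to 49663 per library, against 302 to 1349 for the 6 endothelial markers. The sum was 191 to 4165 for adipocyte, 31.0 to 2484 for blood and 258 to 1057 for adventitial fibroblast markers. It was 10.3 to 1326 for striated muscle, 38.5 to 222 for macrophage and 1.02 to 190 for mesothelial markers. No marker of another cell type was at 0 reads in every library of a group. The targeted gene, Ppp3r1, averaged 73.0 ± 22.5 (SD, n = 12, range 41.8 to 118) in signal over SM-Cn-/- libraries and 87.6 ± 27.5 (SD, n = 10, range 45.7 to 134) over Cn-Ctl libraries. The ranges overlapped, and a value per gene does not show whether the floxed exons were present. According to the methods, recombination of CnB1 was checked by PCR on aortic tissue, and SM-Cn-/- mice without shown deletion were removed. The paper also reports less CnB protein in SM-Cn-/- aortas.

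ADAMTS proteases are secreted zinc enzymes that carry thrombospondin repeats and are trimmed by furin-type convertases before or after they reach the extracellular matrix. The products of Adamts1, Adamts4, Adamts5, Adamts8, Adamts9 and Adamts15 belong to the group that can cleave large chondroitin sulfate proteoglycans, among them versican, which fills the space between smooth muscle cells and elastic lamellae in the arterial wall, and aggrecan. ADAMTS2 is of another kind, a procollagen N-proteinase that removes the amino-terminal propeptide of fibrillar collagens. TIMP3 is the main tissue inhibitor of several of the family, and the receptor LRP1 clears some of them from the matrix.

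The members lie on 5 chromosomes of GRCm38, with 2 pairs of neighbours. Adamts1 (chromosome 16, 85793827 to 85803113, minus strand) and Adamts5 (85856173 to 85901828, minus strand) are separated by 53059 bases, and Adamts15 (chromosome 9, 30899155 to 30922452, minus strand) and Adamts8 (30942562 to 30963838, plus strand) stand head to head, 20109 bases apart. Adamts2 lies on chromosome 11 (50602084 to 50807573, plus strand), Adamts4 on chromosome 1 (171250421 to 171260637, plus strand) and Adamts9 on chromosome 6 (92772699 to 92943492, minus strand). The annotation places genes of the opposite strand over part of Adamts8 and Adamts9, where 489 exon bases of Adamts8 are shared with Gm29724, and 1381 and 424 of Adamts9 with A730049H05Rik and Gm15737. The sources used here do not say that reads were assigned by strand, so that reads from those bases cannot be attributed with certainty.

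The promoters of the pair that rose at 2 h in every line of mice, Adamts1 and Adamts9, are shown for the 300 bases from 250 before to 50 after the annotated start (RefSeq, GRCm38.p6; of the 7 members, Adamts1, Adamts2 and Adamts9 were matched). The Adamts1 window is chr16:85803064-85803363 on the minus strand and the Adamts9 window chr6:92943485-92943784 on the minus strand. Capitals mark matches on either strand to 4 short motifs, namely GGAAA, the core bound by the calcineurin-dependent factor NFAT, TGANTCA, bound by AP-1, TATAAA, and the CArG box of serum response factor.
Adamts1: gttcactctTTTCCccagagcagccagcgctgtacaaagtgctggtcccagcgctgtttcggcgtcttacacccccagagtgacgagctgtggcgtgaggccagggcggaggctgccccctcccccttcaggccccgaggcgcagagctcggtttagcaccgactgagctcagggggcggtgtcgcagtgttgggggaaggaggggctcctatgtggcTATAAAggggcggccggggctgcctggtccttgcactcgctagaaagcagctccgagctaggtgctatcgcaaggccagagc
Adamts9: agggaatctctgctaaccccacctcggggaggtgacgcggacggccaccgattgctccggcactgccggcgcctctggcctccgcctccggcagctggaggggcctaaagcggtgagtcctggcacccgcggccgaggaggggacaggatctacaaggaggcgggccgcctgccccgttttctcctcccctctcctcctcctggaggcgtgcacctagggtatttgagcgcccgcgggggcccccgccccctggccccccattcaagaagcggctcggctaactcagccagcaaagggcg
The Adamts1 window held TATAAA at 32 bases before the start, a motif found in 13.6% of the 32851 promoters of the table, and the reverse complement of GGAAA at 241 bases before the start, found in 61.3% of them. The Adamts9 window held none of the 4, and neither window held TGANTCA (7.81% of promoters) or a CArG box (1.63%). No motifs overlapped. A match describes letters and is not a binding site, and the absence of one says only that these letters are not in this window.

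In untreated aortas the 7 transcripts differed widely per length of exon, with Adamts1, a versicanase, the most abundant in each of the 4 untreated groups and Adamts4, an aggrecanase, the least. Signal, the unit of all values below, is assigned reads (plus 0.5) per 1e6 reads of a scaled library. Per kb of exon, mean signal in untreated WT aortas was 66.4 ± 10.2 for Adamts1, 20.7 ± 2.74 for Adamts2, 15.3 ± 3.12 for Adamts8, 5.83 ± 0.263 for Adamts5, 4.98 ± 0.473 for Adamts15, 2.20 ± 0.0556 for Adamts9 and 0.116 ± 0.0522 for Adamts4 (SD, n = 3), and no neighbours in this order had overlapping libraries. The first and last places were the same in the other untreated groups. Adamts8 stood above Adamts2 in untreated Cn-Ctl (17.2 against 11.5 per kb), Adamts2 and Adamts8 overlapped in untreated CsA, and Adamts5 and Adamts15 overlapped in untreated Cn-Ctl and CsA.

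**Figure D1:**
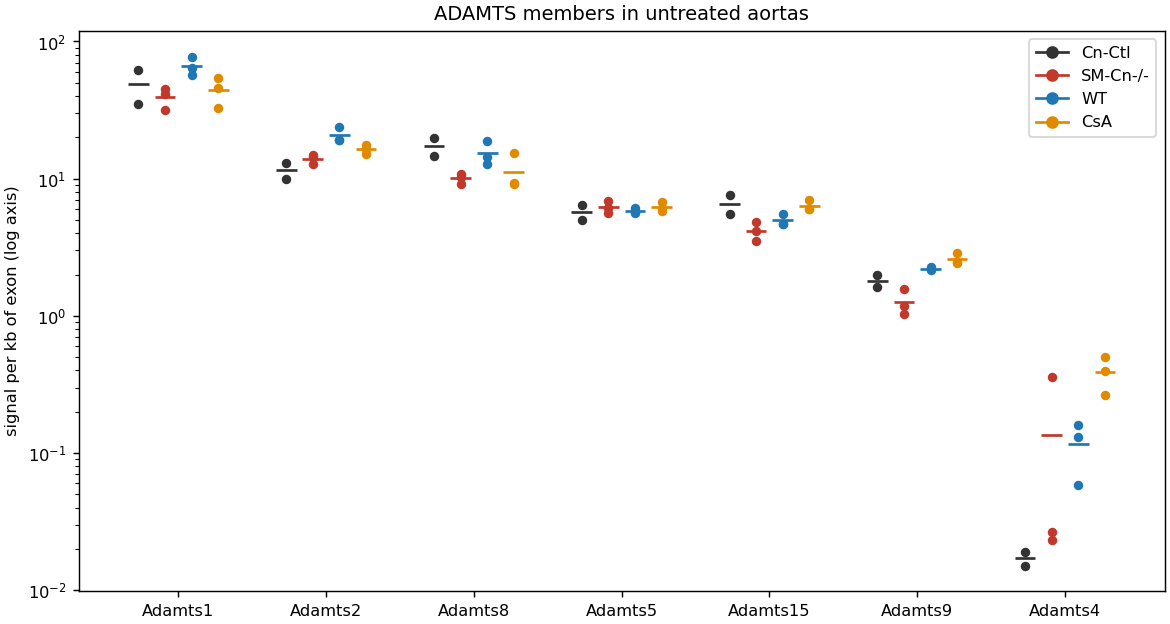
Signal per kb of exon (log axis) of the 7 members in untreated aortas, with a point for each library and a line at each group mean, for Cn-Ctl (2 libraries), SM-Cn-/-, WT and CsA (3 libraries each). Adamts1 lies highest, at 31.5 to 77.5 per kb, and Adamts4 lowest, at 0.0151 to 0.501, where the lowest values are libraries with 0 reads and hold only the 0.5 reads the authors added.

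After 2 h of Ang-II, Adamts1 and Adamts9 rose in each of the 4 lines of mice, with Adamts1 rising 6.15-fold in Cn-Ctl, 4.20-fold in WT, 4.27-fold in CsA and 2.89-fold in SM-Cn-/-. Adamts9 rose 3.42-fold in Cn-Ctl, 3.91-fold in WT, 2.03-fold in CsA and 2.46-fold in SM-Cn-/-. Both were lower in SM-Cn-/- than in Cn-Ctl at 2 and 24 h of Ang-II. By 24 h the early rise had receded, and other members had changed: Adamts8 fell in Cn-Ctl and WT, Adamts15 fell in Cn-Ctl, and Adamts4 rose in Cn-Ctl and WT. Changes were tested with limma on log2(signal + 0.5) over all genes, and a member is called changed at a Benjamini-Hochberg adjusted p under 0.05. Folds are on that scale, which understates the change of a transcript of low signal such as Adamts4. Libraries are separate pools, and p-values measure the spread between pools.

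The number of members called is read here against the share of all genes called in the same comparison. Against untreated aortas, 3 of 7 members were called in Cn-Ctl at 2 h (6.23% of all genes tested), 1 at 6 h (3.97%) and 3 at 24 h (5.62%), and 2 of 7 between 2 and 24 h (7.37%). In SM-Cn-/- 2 were called at 2 h (1.13%) and 2 between 2 and 24 h (3.65%). None was called by limma in SM-Cn-/- at 6 h (2.34%) or at 24 h (0.790%), where edgeR and DESeq2 also called 0 and 1 member at each time had an unadjusted p under 0.05. In the CsA experiment, where far more genes passed, 2 members were called in WT at 2 h (21.4%), 6 at 24 h (35.0%) and 6 between 2 and 24 h (36.2%). In CsA-treated mice 3 were called at 2 h (20.1%), 3 at 24 h (8.98%) and 2 between 2 and 24 h (18%). In the WT comparison at 2 h the share of members was thus close to that of all genes.

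**Figure D2:**
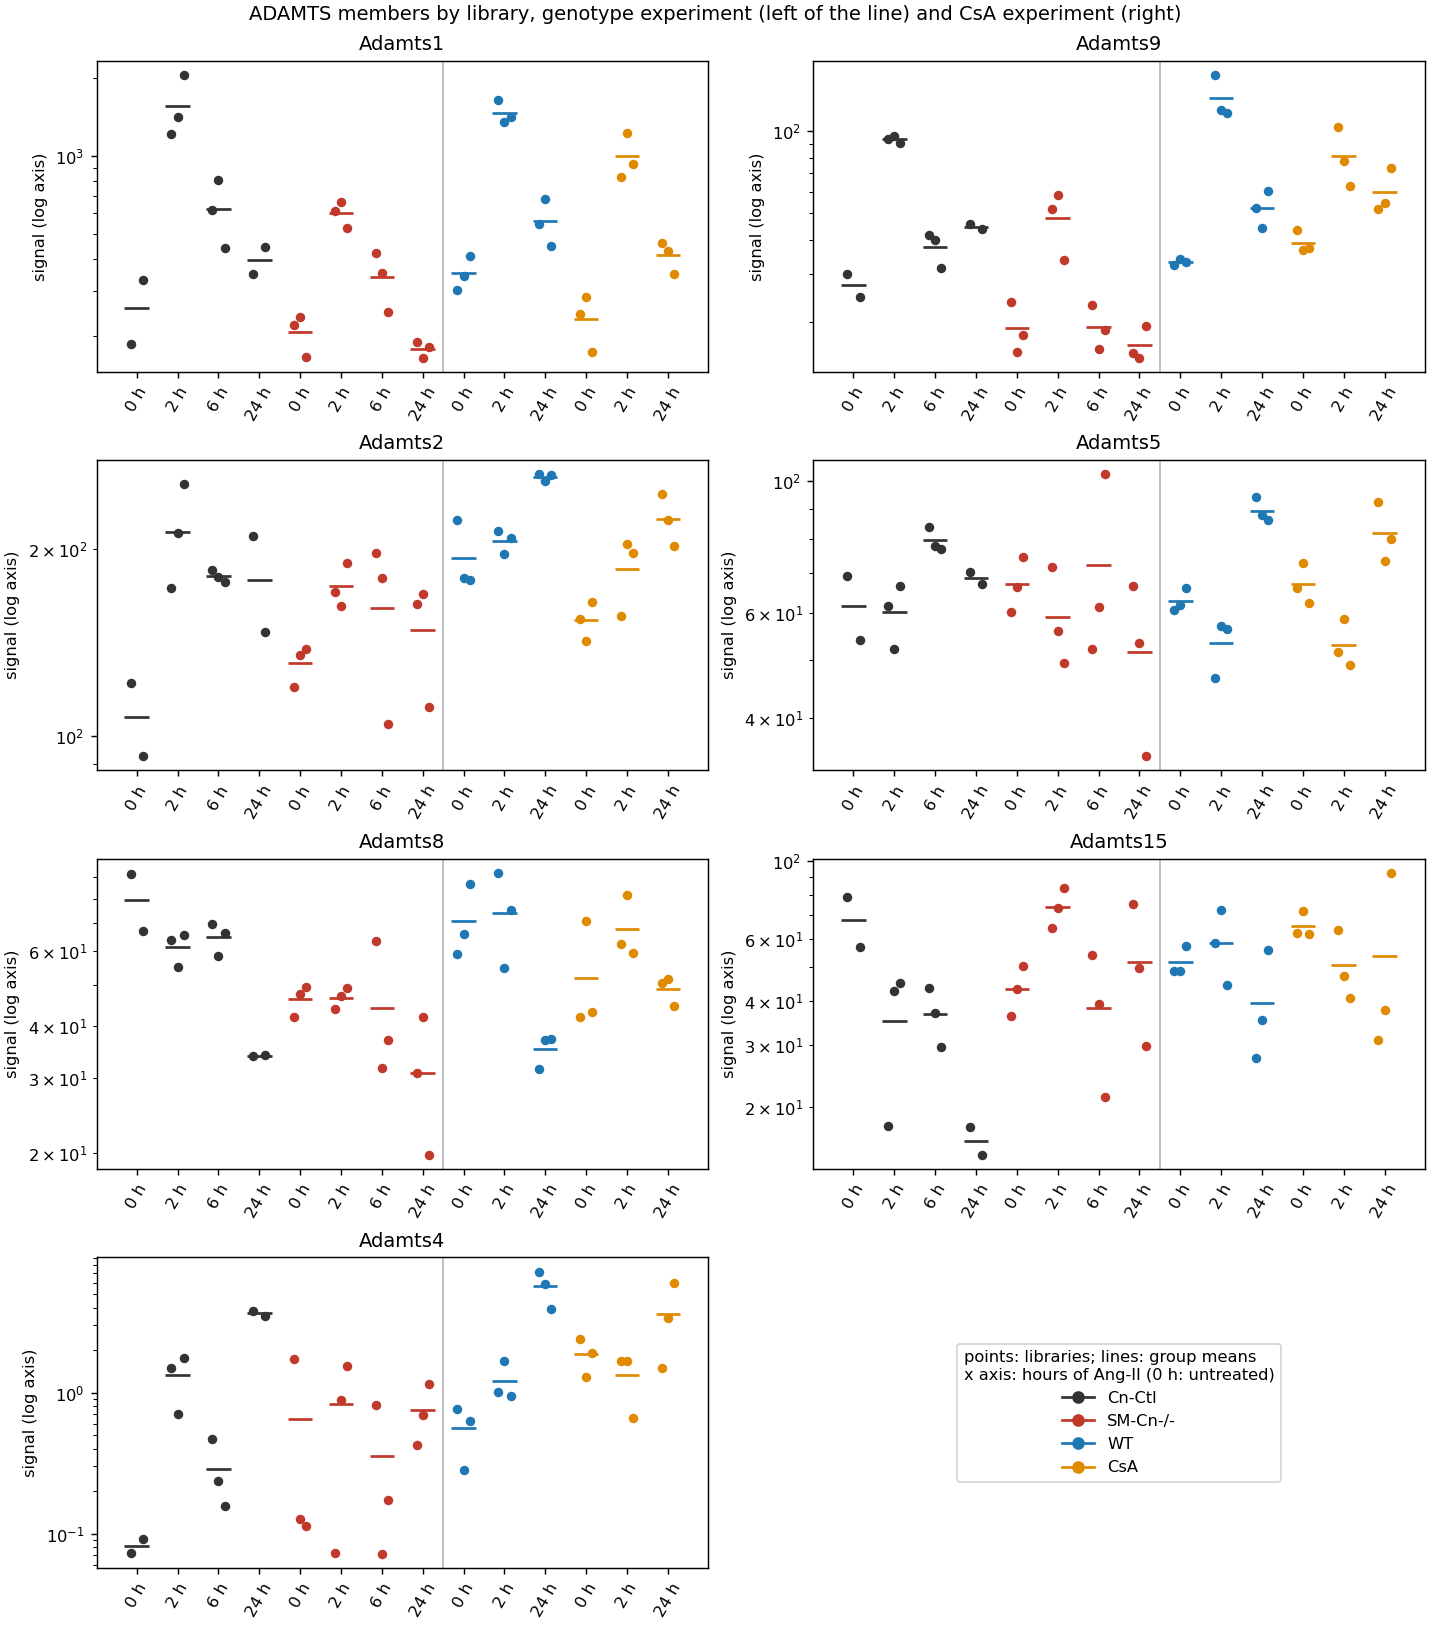
Signal (log axis) of each member in all 40 libraries, with points for libraries and lines for group means, by hours of Ang-II (0 h is untreated); the genotype experiment is left and the CsA experiment right of the grey line. Adamts1 and Adamts9 peak at 2 h in each of the 4 lines, and Adamts4 is highest at 24 h in Cn-Ctl (3.49 and 3.82) and WT (3.93 to 7.21).

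Adamts1, known as an inflammation-induced protease and a versicanase, had the largest called change of the members at 2 h in Cn-Ctl. Its signal was 186 and 330 in untreated Cn-Ctl libraries, 1214, 1423 and 2057 at 2 h, 439, 615 and 808 at 6 h, and 349 and 442 at 24 h. All 3 libraries at 2 h and all 3 at 6 h lay above both untreated libraries. The log2 difference was 2.62 (SE 0.28, limma, adjusted p = 1.9e-06) at 2 h and 1.28 (SE 0.28, adjusted p = 0.0093) at 6 h. At 24 h the difference of 0.66 did not pass (adjusted p = 0.22), and Adamts1 fell by 1.96 on the log2 scale from 2 to 24 h (SE 0.28, adjusted p = 0.00017). The call at 6 h was lost without untreated Cn-Ctl replicate 2 (0.87, adjusted p = 0.27) and in a fit of the compared groups alone (adjusted p = 0.14).

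In SM-Cn-/- aortas Adamts1 also rose, to a lower level. Its signal was 167, 221 and 238 in untreated libraries, 526, 610 and 664 at 2 h, 248, 351 and 420 at 6 h, and 165, 182 and 190 at 24 h. The rise at 2 h was 1.53 on the log2 scale (SE 0.25, limma, adjusted p = 0.0025), the difference at 6 h was 0.68 (adjusted p = 0.16) although the libraries did not overlap, and the 24 h and untreated libraries overlapped. From 2 to 24 h it fell by 1.74 (SE 0.25, adjusted p = 0.00088).

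In the CsA experiment, which used other mice, Adamts1 followed the same course of a rise at 2 h and a lower level at 24 h. Its signal in WT was 304, 343 and 411 untreated, 1356, 1416 and 1648 at 2 h, and 447, 544 and 683 at 24 h. In CsA-treated mice it was 174, 244 and 285 untreated, 826, 934 and 1230 at 2 h, and 348, 427 and 462 at 24 h. Treated and untreated libraries were separate in both lines at both times, and Adamts1 rose by 2.07 in WT (SE 0.20, limma, adjusted p = 3e-06) and by 2.09 in CsA (SE 0.20, adjusted p = 9.6e-06) at 2 h. At 24 h it was higher than untreated, by 0.65 in WT and 0.83 in CsA (adjusted p = 0.018 in each). The 24 h calls were lost without 1 library: in WT without untreated replicate 1 or 2 or treated replicate 2 (adjusted p 0.053 to 0.10), and in CsA without untreated replicate 3 or treated replicate 1 or 2 (0.066 to 0.078) and in a fit of the compared groups alone (0.067).

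Adamts9, a large versican-cleaving protease, shared the rise at 2 h and the lower level at 24 h, with less signal than Adamts1. Its signal was 24.5 and 29.8 in untreated Cn-Ctl libraries, 90.9, 94.0 and 95.9 at 2 h, 31.5, 39.7 and 41.4 at 6 h, and 43.6 and 45.7 at 24 h. In SM-Cn-/- it was 15.4, 17.9 and 23.7 untreated, 33.5, 51.9 and 58.3 at 2 h, 15.8, 18.6 and 23.0 at 6 h, and 14.8, 15.4 and 19.3 at 24 h. The 2 h libraries lay above the untreated ones in both genotypes, with log2 rises of 1.77 in Cn-Ctl (SE 0.25, limma, adjusted p = 4.9e-05) and 1.30 in SM-Cn-/- (SE 0.22, adjusted p = 0.0035). From 2 to 24 h Adamts9 fell by 1.06 in Cn-Ctl (adjusted p = 0.011; 0.13 without treated Cn-Ctl 24 h replicate 3) and by 1.48 in SM-Cn-/- (adjusted p = 0.0010). Unlike Adamts1, Adamts9 was not called at 6 h against untreated in Cn-Ctl (0.46, limma, adjusted p = 0.37), although the libraries did not overlap. In SM-Cn-/- the 6 h difference was 0.016 (adjusted p = 0.99). At 24 h the Adamts9 libraries in Cn-Ctl were still above the untreated ones, a difference of 0.71 that did not pass (adjusted p = 0.13).

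In WT aortas Adamts9 had a signal of 32.3, 33.2 and 33.9 untreated, 117, 119 and 161 at 2 h, and 44.0, 52.3 and 60.4 at 24 h. In CsA-treated mice it was 36.5, 37.3 and 43.3 untreated, 62.8, 77.5 and 103 at 2 h, and 51.7, 54.4 and 73.5 at 24 h. Treated libraries were above untreated ones throughout. The log2 rise at 2 h was 1.97 in WT (SE 0.18, limma, adjusted p = 1.6e-06) and 1.02 in CsA (SE 0.18, adjusted p = 0.0011). At 24 h it was 0.64 in WT (adjusted p = 0.010) and 0.60 in CsA (adjusted p = 0.045). The CsA call at 24 h did not hold without any 1 of the 6 libraries (adjusted p 0.063 to 0.12) or in a fit of the compared groups alone (0.073). Adamts9 fell by 1.33 from 2 to 24 h in WT (adjusted p = 4e-05), while in CsA the libraries of the 2 times overlapped (-0.42, adjusted p = 0.11). That difference was -0.59 (adjusted p = 0.036) without 2 h replicate 3 and -0.58 (adjusted p = 0.047) without 24 h replicate 3. In CsA at 2 h, 4 of 6 macrophage markers, 3 of 4 striated muscle markers and 3 of 3 mesothelial markers were also lower than untreated (summed signal of macrophage markers 85.1 to 107 against 132 to 173). Their part in the CsA values was not tested.

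Between the genotypes, the question was whether smooth muscle calcineurin is needed for the levels reached under Ang-II. In untreated aortas none of the 7 members was called by limma, edgeR or DESeq2 (0.0139% of all genes by limma), while Adamts8 (-0.75, SM-Cn-/- minus Cn-Ctl, adjusted p = 0.77) and Adamts9 (-0.52, adjusted p = 0.95) had unadjusted p-values under 0.05 (2 of 7 members). At 2 h of Ang-II 2 of 7 were called (3.70%), at 6 h 1 (1.98%) and at 24 h 3 (4.94%). Adamts1 was 0.392-fold in SM-Cn-/- relative to Cn-Ctl at 2 h (log2 difference -1.35, SE 0.25, limma, adjusted p = 0.0021) and 0.456-fold at 24 h (-1.13, adjusted p = 0.018), with no overlap between the genotypes at either time. At 6 h its libraries did not overlap either, but the difference of -0.86 did not pass (adjusted p = 0.082; 0.020 under DESeq2, and called without Cn-Ctl 6 h replicate 3 or SM-Cn-/- 6 h replicate 1, at adjusted p 0.032 and 0.038). The call at 24 h was lost without Cn-Ctl replicate 3 (adjusted p = 0.24) or SM-Cn-/- replicate 2 (0.069).

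Adamts9 was lower in SM-Cn-/- at each time of Ang-II, with no overlap between the genotypes. The level was 0.501-fold at 2 h (SE of the log2 difference 0.22, limma, adjusted p = 0.010). The log2 difference was -0.96 at 6 h (SE 0.22, adjusted p = 0.022) and -1.42 at 24 h (SE 0.25, adjusted p = 0.0013). The 24 h call held in every fit. The 2 h call was lost without Cn-Ctl replicate 2 (adjusted p = 0.052) or SM-Cn-/- replicate 3 (0.060), and the 6 h call without Cn-Ctl replicate 1 or 2 or SM-Cn-/- replicate 2 or 3 (0.080 to 0.12) and in a fit of the compared groups alone (0.25).

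Endothelial markers differed between the genotypes in the same libraries. At 2 h their summed signal was 684 to 850 in SM-Cn-/- and 302 to 540 in Cn-Ctl (1 of 6 called higher), and at 24 h 1126 to 1176 and 484 to 497 (2 of 6 called higher). Of the smooth muscle markers 2 of 8 were called lower in SM-Cn-/- at 2 h (summed signal 25482 to 32042 against 27521 to 35819) and 1 of 8 at 24 h (24703 to 27540 against 27605 to 49663). In pooled tissue, fewer cells of a type and less RNA per cell cannot be told apart, and the part of these shifts in the genotype differences was not tested.

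The difference in response to Ang-II, tested directly as treated minus untreated in SM-Cn-/- less the same in Cn-Ctl, was not called by limma or edgeR for any member at 2 h (0.513% of all genes), 6 h (0.0624%) or 24 h (0.513%). At an unadjusted p under 0.05 there were 2 members at 2 h, 0 at 6 h and 4 at 24 h, and DESeq2 called 1, 0 and 1, Adamts15 each time. For Adamts1 the response at 2 h differed by -1.09 on the log2 scale (SE 0.37, 95% interval -1.86 to -0.31, limma, adjusted p = 0.36), and for Adamts9 the difference of -0.47 had an interval of -1.16 to 0.21 (adjusted p = 0.79). At 24 h the values were -0.87 for Adamts1 (adjusted p = 0.42) and -0.90 for Adamts9 (adjusted p = 0.30). A difference in fold response was therefore not resolved for either gene.

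**Figure D3:**
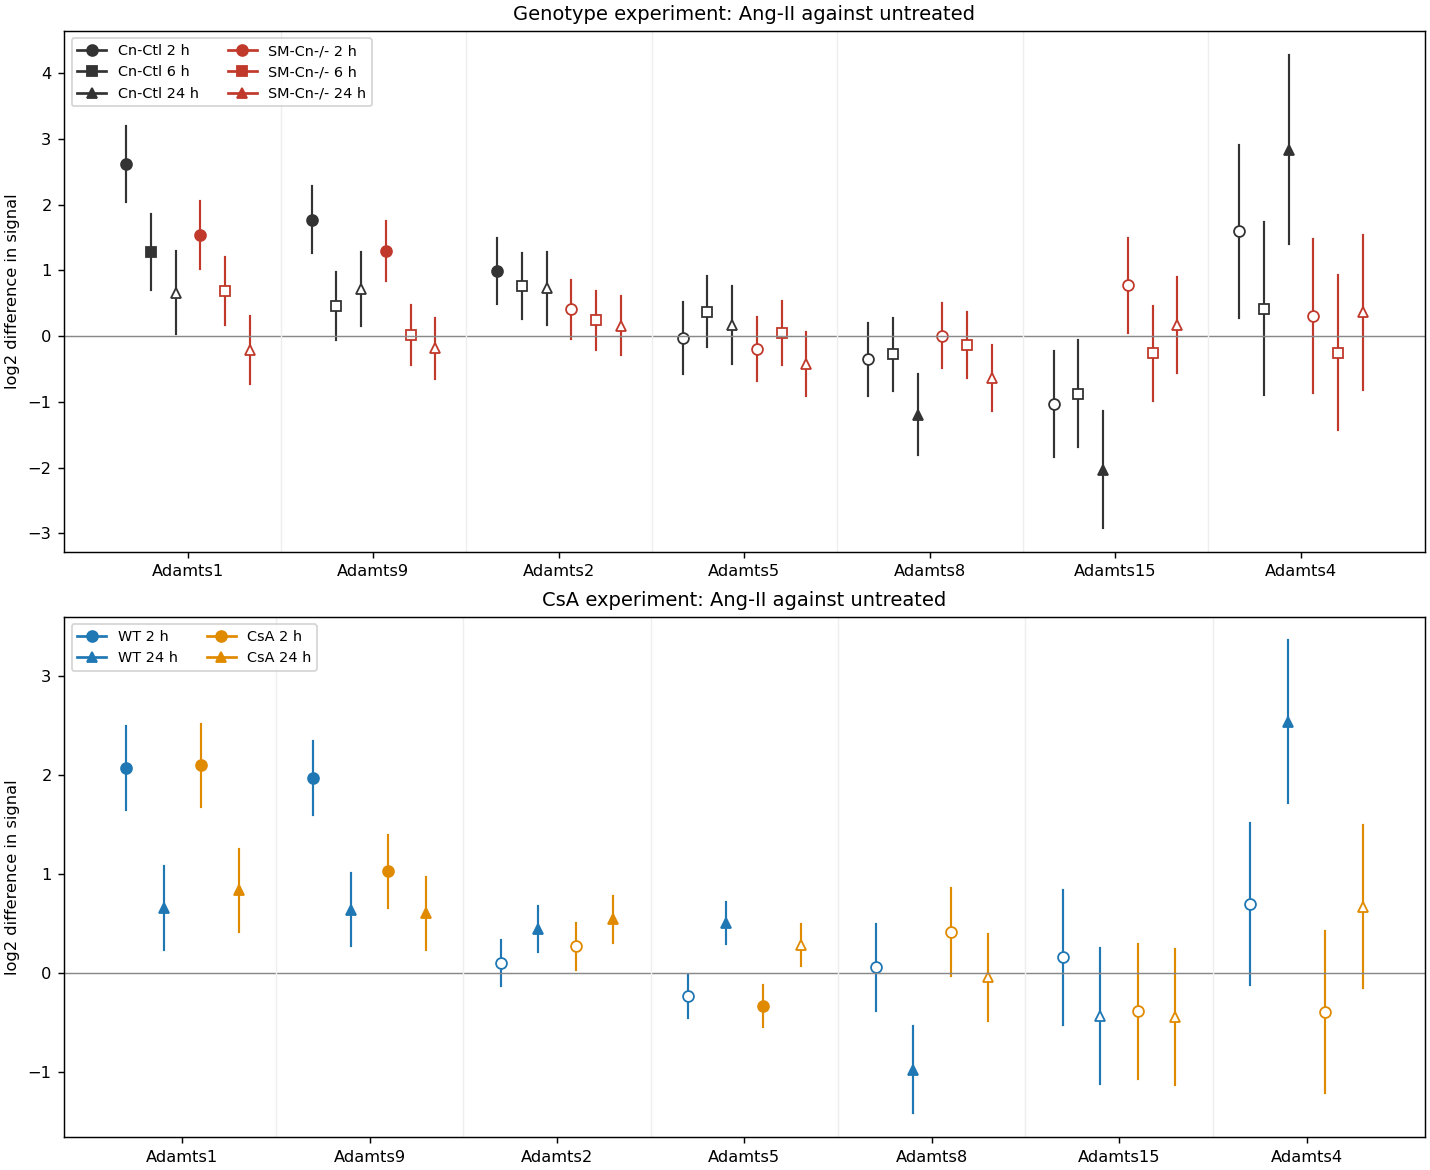
Log2 difference in signal between Ang-II and untreated aortas for each member, with 95% intervals from limma, for Cn-Ctl and SM-Cn-/- at 2, 6 and 24 h (top) and for WT and CsA at 2 and 24 h (bottom). Filled symbols have an adjusted p under 0.05; Adamts1 and Adamts9 are filled at 2 h in all 4 lines, and Adamts15 is filled in Cn-Ctl at 24 h (-2.03).

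Between CsA and WT, the comparison asks about calcineurin's phosphatase activity. In untreated aortas 3 of 7 members were called (25.2% of all genes): Adamts1 was 0.658-fold in CsA (log2 difference -0.60, SE 0.20, limma, adjusted p = 0.036), Adamts2 0.798-fold (-0.33, SE 0.11, adjusted p = 0.041) and Adamts4 2.23-fold (SE of the log2 difference 0.39, adjusted p = 0.039). Under quantile normalization 0 of the 3 passed (adjusted p 0.057, 0.090 and 0.18). The Adamts1 call was also lost without WT replicate 2 or 3 or CsA replicate 1 or 3 (0.061 to 0.18), the Adamts2 call without any 1 of the 6 libraries (0.051 to 0.18), and the Adamts4 call without WT replicate 2 or 3 or CsA replicate 1 or 3 (0.078 to 0.14) or with a pseudocount of 2 (0.093). Cell type markers differed in the same libraries. Of the smooth muscle markers 7 of 8 were lower in untreated CsA aortas (summed signal 16623 to 18702 against 25857 to 35413 in WT), while 6 of 6 endothelial (983 to 1150 against 371 to 637), 6 of 6 macrophage (132 to 173 against 63.1 to 86.0) and 5 of 5 adipocyte markers (2330 to 4165 against 351 to 665) were higher, and their part in the 3 differences was not tested.

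After Ang-II none of the members was called between CsA and WT by limma or edgeR, at 2 h (1.33% of all genes) or at 24 h (5.58%); 2 members at each time had an unadjusted p under 0.05, and DESeq2 called 1 at 2 h and 0 at 24 h. Adamts1 at 2 h was lower in CsA in all 3 libraries, with a log2 difference of -0.58 (SE 0.20, limma, adjusted p = 0.14). Adamts9 at 2 h, at 62.8 to 103 in CsA and 117 to 161 in WT, was also separate (-0.72, SE 0.18, adjusted p = 0.059) and passed under DESeq2 (adjusted p = 0.0072), with the stricter filter (0.050) and without WT 2 h replicate 2 (0.048).

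The response of Adamts1 at 2 h differed between WT and CsA by an amount with a 95% interval of -0.57 to 0.62 on the log2 scale. That of Adamts9 differed by -0.94, CsA minus WT (SE 0.25, 95% interval -1.47 to -0.42, limma, adjusted p = 0.14; 0.032 under DESeq2), its untreated level being 36.5 to 43.3 in CsA and 32.3 to 33.9 in WT. By limma and edgeR 0 of 7 members were called for a difference in response at 2 h (0.146% of all genes; 1 member at an unadjusted p under 0.05 and 1 by DESeq2, Adamts9), and 1 of 7, Adamts4, at 24 h (9.42%).

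**Figure D4:**
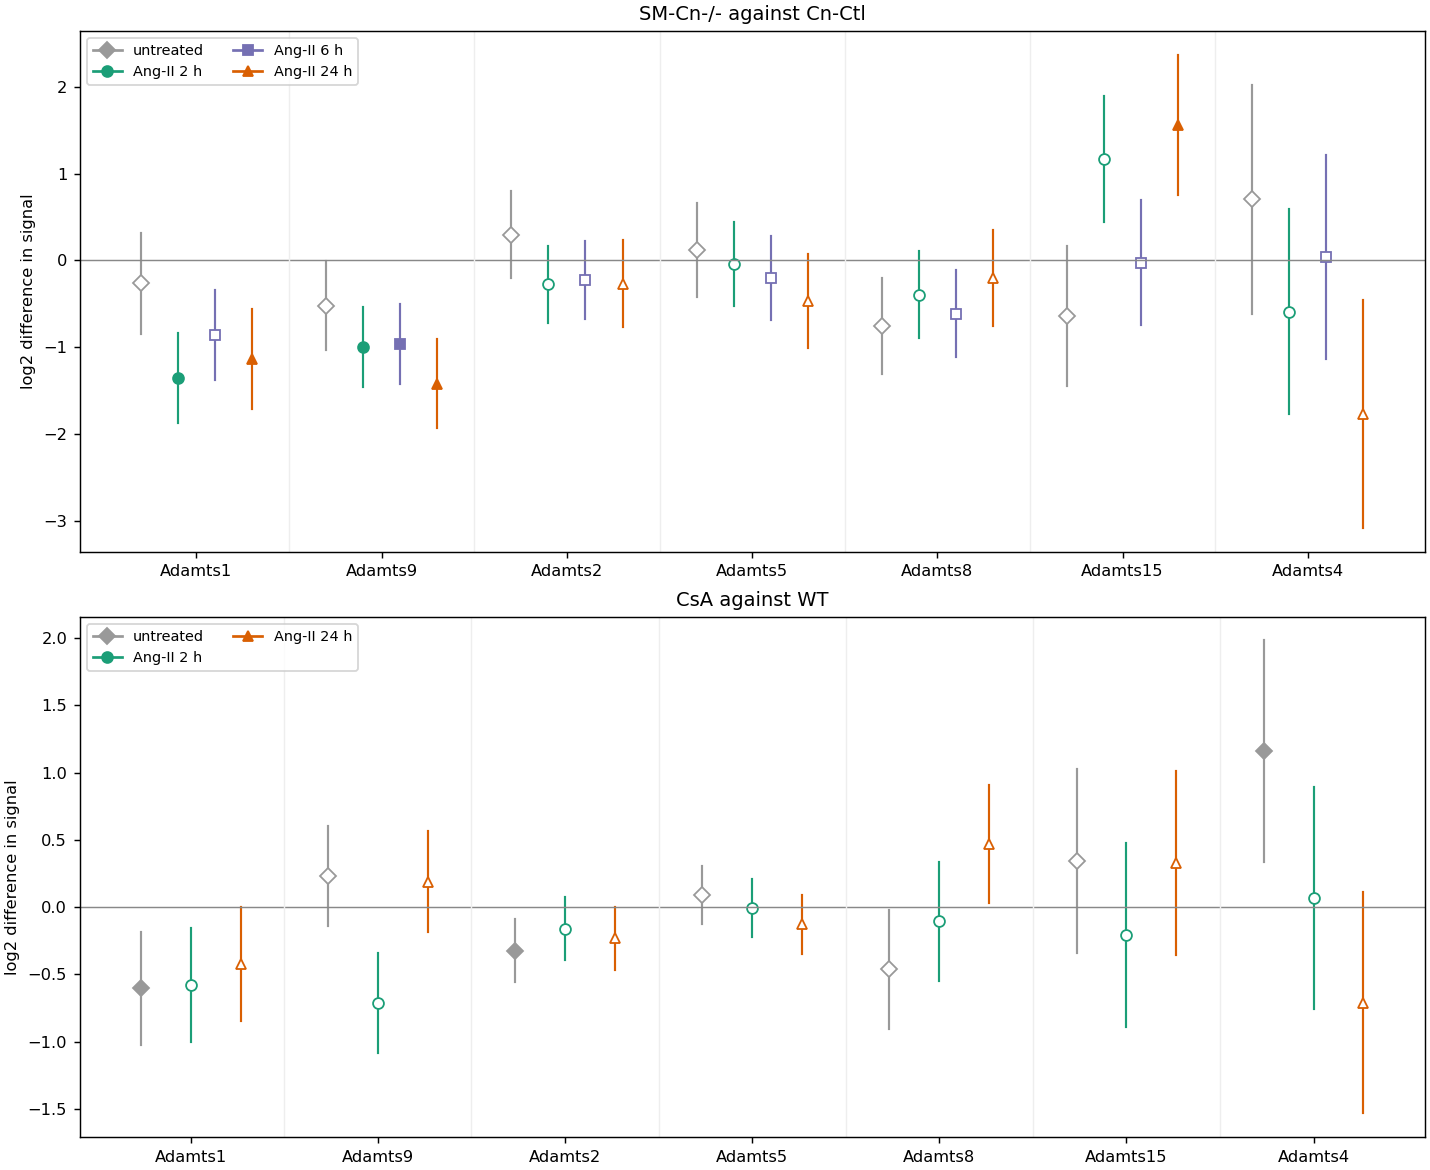
Log2 difference in signal, with 95% intervals from limma, of SM-Cn-/- against Cn-Ctl (top) and of CsA against WT (bottom), untreated and at each time of Ang-II; filled symbols have an adjusted p under 0.05. Adamts9 lies below 0 in SM-Cn-/- at 2, 6 and 24 h, and Adamts15 above 0 at 24 h (1.56).

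The aggrecanases Adamts4 and Adamts5 took other courses. Adamts4, an enzyme known to be induced by inflammatory cytokines, was scarce, with 0 to 27 reads per library in the genotype experiment and 0 reads in 8 of its 22 libraries. It had 0 reads in both untreated Cn-Ctl libraries, which allows a level of up to 0.243 reads per 1e6 (3 reads over the group; counting error only), 4, 7 and 11 reads at 2 h, 0, 1 and 2 at 6 h, and 13 and 27 at 24 h. At 24 h the level of 3.61 reads per 1e6 was 14.9-fold the untreated limit. That value leaves out counting error at 24 h and the spread between pools. The log2 difference of 2.83 was called (SE 0.69, limma, adjusted p = 0.017), but was lost under edgeR (adjusted p = 0.094), in a fit of the compared groups alone (0.075) and without any 1 of the 4 libraries (0.054 to 0.11), and the gene failed the stricter filter. In SM-Cn-/- its reads were 0, 0 and 11 untreated and 3, 4 and 12 at 24 h, so that the groups overlapped. At 24 h SM-Cn-/- libraries (0.422 to 1.15) lay below the Cn-Ctl ones (3.49 and 3.82; -1.77, adjusted p = 0.13, and 0.037 with a pseudocount of 2). The difference in response at 24 h was -2.47 (95% interval -4.33 to -0.61, adjusted p = 0.26).

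With deeper libraries, Adamts4 could be followed at 7 to 232 reads in the CsA experiment. Its signal in WT was 0.281, 0.628 and 0.769 untreated, 0.951, 1.00 and 1.67 at 2 h, and 3.93, 5.89 and 7.21 at 24 h. In CsA it was 1.28, 1.91 and 2.41 untreated, 0.662, 1.66 and 1.67 at 2 h, and 1.50, 3.36 and 5.95 at 24 h. In WT the 24 h libraries were above all others, a 5.80-fold rise (log2 difference 2.54, SE 0.39, limma, adjusted p = 0.00013) that held in every fit, whereas in CsA the 24 h libraries overlapped the untreated ones (0.67, adjusted p = 0.29). From 2 to 24 h the Adamts4 difference in CsA was 1.06 (limma, adjusted p = 0.069), with overlapping libraries, and it passed under DESeq2. The response at 24 h against untreated was smaller in CsA (-1.87, SE 0.55, limma, adjusted p = 0.043), with a higher untreated level in CsA. The call was lost without any 1 of the 3 untreated WT libraries, WT 24 h replicate 1 or 2, untreated CsA replicate 1 or 3, or CsA 24 h replicate 1 or 2 (0.051 to 0.11). Macrophage markers moved with it: 6 of 6 rose in WT at 24 h (summed signal 166 to 222 against 63.1 to 86.0), and 6 of 6 had a smaller response in CsA, where the sum was 132 to 173 untreated and 137 to 172 at 24 h. In WT at 24 h 2 of 3 mesothelial markers also rose, and the part of these cells in the Adamts4 values was not tested.

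Adamts5, the other main aggrecanase and the neighbour of Adamts1, was not called higher at 2 h in any of the 4 lines. In Cn-Ctl its signal was 54.1 and 69.4 untreated, 52.2, 61.7 and 66.7 at 2 h, 77, 78.0 and 83.7 at 6 h, and 67.2 and 70.4 at 24 h. In SM-Cn-/- it was 60.2, 66.5 and 74.5 untreated, 49.4, 56.0 and 71.7 at 2 h, 52.2, 61.6 and 103 at 6 h, and 34.5, 53.5 and 66.6 at 24 h. The 6 h libraries of Cn-Ctl lay above both untreated ones, but no comparison of the genotype experiment called Adamts5. In WT it was 60.7, 61.9 and 66.1 untreated, 46.6, 56.5 and 57.0 at 2 h, and 86.2, 87.6 and 94.1 at 24 h. In CsA it was 62.5, 66.2 and 73.0 untreated, 49.1, 51.6 and 58.6 at 2 h, and 73.3, 80.0 and 92.4 at 24 h. In both lines the 2 h libraries lay below and the 24 h libraries above the untreated ones. At 2 h the difference was -0.24 in WT (limma, adjusted p = 0.11; 0.020 under quantile normalization) and -0.34 in CsA (SE 0.10, adjusted p = 0.028; lost without untreated replicate 1 or 2 or treated replicate 1 or 3, at 0.059 to 0.10, and with the compared groups alone, at 0.074). At 24 h Adamts5 rose by 0.50 in WT (SE 0.10, adjusted p = 0.0013), and the difference in CsA was 0.28 (adjusted p = 0.097; 0.033 under DESeq2). From 2 to 24 h it rose by 0.74 in WT (adjusted p = 5.6e-05) and by 0.62 in CsA (adjusted p = 0.00095), calls that held in every fit.

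Of Adamts8 and Adamts15, proteoglycanases that lie head to head on chromosome 9, both fell by 24 h in Cn-Ctl, and Adamts8 also fell in WT. Adamts8 had a signal of 67.1 and 91.7 in untreated Cn-Ctl, 55.2, 63.7 and 65.6 at 2 h, 58.5, 66.3 and 69.7 at 6 h, and 33.9 and 34.0 at 24 h. In WT it was 59.3, 66.0 and 86.9 untreated, 54.9, 75.2 and 92.1 at 2 h, and 31.5, 37.0 and 37.2 at 24 h. The 24 h libraries lay below all untreated and 2 h libraries in both lines, at 0.437-fold of untreated in Cn-Ctl (log2 difference -1.19, SE 0.29, limma, adjusted p = 0.018) and 0.507-fold in WT (-0.98, SE 0.21, adjusted p = 0.0018). The WT fall held in every fit, and it was -1.03 from 2 to 24 h (adjusted p = 0.0012). In WT at 24 h 6 of 6 macrophage markers were also higher than untreated (summed signal 166 to 222 against 63.1 to 86.0), and of 8 smooth muscle markers 3 were lower and 1 higher (24112 to 33611 against 25857 to 35413). Their part in the Adamts8 values, or in the WT changes of Adamts1, Adamts2, Adamts5 and Adamts9 at 24 h, was not tested. The Cn-Ctl call was lost without untreated replicate 2 (adjusted p = 0.21), 24 h replicate 2 (0.051) or 24 h replicate 3 (0.12) and in a fit of the compared groups alone (0.062).

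In SM-Cn-/- Adamts8 had a signal of 42.0, 47.6 and 49.5 untreated, 43.7, 47.1 and 49.0 at 2 h, 31.7, 37.0 and 63.5 at 6 h, and 19.7, 30.9 and 41.9 at 24 h. The difference at 24 h against untreated was -0.64 (limma, adjusted p = 0.26), and at 24 h the genotypes overlapped. In CsA its signal was 42.0, 43.2 and 70.8 untreated, 59.6, 62.6 and 81.6 at 2 h, and 44.5, 50.4 and 51.7 at 24 h, and the 24 h and untreated libraries overlapped. The response at 24 h was higher in CsA than in WT by 0.93 (SE 0.29, limma, adjusted p = 0.057). That value passed under quantile normalization (0.036), DESeq2 (0.028) and a fit of the compared groups alone (0.043). It also passed without untreated CsA replicate 2 (0.023) or CsA 24 h replicate 3 (0.040). The response rests in part on the untreated groups, where Adamts8 differed by -0.46, CsA minus WT (limma, adjusted p = 0.11). At 24 h the difference was 0.47 (adjusted p = 0.19). Cell type markers also differed between untreated CsA and WT, as given above, and their part was not tested.

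Adamts15 lay on opposite sides of the untreated libraries in the 2 genotypes at 2 h. In Cn-Ctl its signal was 56.9 and 78.9 untreated, 17.6, 42.6 and 44.9 at 2 h, 29.6, 36.9 and 43.7 at 6 h, and 14.6 and 17.6 at 24 h. In SM-Cn-/- it was 36.2, 43.2 and 50.2 untreated, 64.6, 73.6 and 83.6 at 2 h, 21.3, 39.2 and 54.0 at 6 h, and 29.9, 49.8 and 75.4 at 24 h. At 2 h every Cn-Ctl library lay below both untreated ones and every SM-Cn-/- library above its 3 untreated ones. The log2 differences at 2 h were -1.04 in Cn-Ctl (SE 0.39, limma, adjusted p = 0.13) and 0.77 in SM-Cn-/- (SE 0.35, adjusted p = 0.35). At 24 h Adamts15 fell by 2.03 in Cn-Ctl (SE 0.43, adjusted p = 0.0063; 0.097 without untreated replicate 2 and 0.085 without 24 h replicate 3), to 0.245-fold.

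Of the direct tests of Adamts15 between the genotypes, only that of the level at 24 h passed under limma. At 24 h it was 2.95-fold higher in SM-Cn-/- than in Cn-Ctl (log2 difference 1.56, SE 0.39, limma, adjusted p = 0.021), with all 3 SM-Cn-/- libraries above both Cn-Ctl ones. The call was lost without Cn-Ctl replicate 3 (adjusted p = 0.21) or SM-Cn-/- replicate 1 (0.11) or 2 (0.064) and in a fit of the compared groups alone (0.061). At 2 h the difference was 1.17 (SE 0.35, adjusted p = 0.068, with 0.026 under DESeq2 and 0.039 without Cn-Ctl 2 h replicate 3). At 6 h the genotypes overlapped, with a difference of -0.025 (limma, adjusted p = 0.98). The response was higher in SM-Cn-/- by 1.81 at 2 h (SE 0.52, 95% interval 0.72 to 2.89, adjusted p = 0.19, with 0.040 under DESeq2). At 24 h the response was higher by 2.20 (SE 0.55, 95% interval 1.06 to 3.34, adjusted p = 0.076, with 0.0039 under DESeq2 and 0.047 without SM-Cn-/- 24 h replicate 3). The difference in response at 6 h was 0.61 (limma, adjusted p = 0.94). These responses rest in part on the untreated groups, where all 3 SM-Cn-/- libraries lay below both Cn-Ctl ones (-0.64, limma, adjusted p = 0.98).

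In the CsA experiment no change of Adamts15 passed the test. In WT its signal was 48.8, 48.8 and 57.3 untreated, 44.5, 58.4 and 72.6 at 2 h, and 27.5, 35.4 and 55.8 at 24 h, and in CsA 61.9, 62.3 and 72.1 untreated, 40.7, 47.2 and 63.5 at 2 h, and 31.0, 37.9 and 92.5 at 24 h. Treated and untreated libraries overlapped at both times in both lines. The 24 h differences were -0.44 in WT (limma, adjusted p = 0.32) and -0.45 in CsA (adjusted p = 0.40), the latter becoming -0.92 (adjusted p = 0.027) without CsA 24 h replicate 3, the highest of all the libraries of that experiment.

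Adamts2, the procollagen N-proteinase, rose at 2 h in Cn-Ctl and at 24 h in WT and CsA. Its signal in Cn-Ctl was 92.6 and 122 untreated, 173, 212 and 255 at 2 h, 177, 181 and 185 at 6 h, and 147 and 210 at 24 h. All treated libraries lay above both untreated ones, and the log2 difference was 0.99 at 2 h (SE 0.24, limma, adjusted p = 0.014), 0.77 at 6 h (adjusted p = 0.080; 0.022 under DESeq2) and 0.72 at 24 h (adjusted p = 0.12). The 2 h call was lost under quantile normalization (adjusted p = 0.086) and without untreated replicate 3 (0.25) or 2 h replicate 3 (0.061). In SM-Cn-/- its signal was 120, 135 and 138 untreated, 162, 171 and 190 at 2 h, 104, 180 and 197 at 6 h, and 111, 163 and 170 at 24 h, with a difference of 0.41 at 2 h (adjusted p = 0.43) and a difference in response from Cn-Ctl of -0.58 (adjusted p = 0.71).

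In WT Adamts2 had a signal of 178, 180 and 223 untreated, 197, 208 and 214 at 2 h, and 258, 264 and 265 at 24 h. In CsA it was 142, 154 and 165 untreated, 156, 197 and 204 at 2 h, and 203, 223 and 246 at 24 h. The 2 h libraries overlapped the untreated ones in both lines, and the 24 h libraries were above them, with a rise of 0.44 in WT (SE 0.11, limma, adjusted p = 0.0053) and 0.54 in CsA (SE 0.11, adjusted p = 0.0081), calls that held in every fit. From 2 to 24 h it rose by 0.35 in WT (adjusted p = 0.022), a call lost without 2 h replicate 2 or 3 or 24 h replicate 1 or 3 (0.051 to 0.066).

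The rest of the pathway was read from lists of 12 other ADAMTS genes, 7 ADAMTS-like genes, 22 substrates and matrix partners, 8 inhibitors and clearance factors, and 5 activating proteases. Of the substrates and partners 20 were tested, and at 2 h 4 were higher and 0 lower in Cn-Ctl (median log2 difference 0.76, against 0.01 over all genes), 1 and 0 in SM-Cn-/- (0.42 against -0.01), 3 and 0 in WT (0.09 against 0.02), and 7 and 1 in CsA (0.41 against -0.02). The shares of all genes called at 2 h were 6.23% (Cn-Ctl), 1.13% (SM-Cn-/-), 21.4% (WT) and 20.1% (CsA), and the counts of every list at 2 h are to be read against these shares. Sdc4, a heparan sulfate proteoglycan of the cell surface, rose in all 4 lines, by 2.24 in Cn-Ctl, 2.14 in WT, 2.01 in CsA and 1.19 in SM-Cn-/- (limma, adjusted p = 0.00025 or less). Its response was smaller in SM-Cn-/- than in Cn-Ctl (-1.06, adjusted p = 0.032). Thbs1, a secreted glycoprotein of the thrombospondin family, rose by 3.08 in Cn-Ctl (adjusted p = 2.9e-05), 2.59 in WT (0.00012) and 1.92 in CsA (0.0022), while its difference in SM-Cn-/- was 0.30 (adjusted p = 0.76) and its response there was smaller than in Cn-Ctl (-2.78, adjusted p = 0.017). Fbln2, a fibulin of the matrix, rose in Cn-Ctl (1.13, adjusted p = 0.0096), with 0.23 in SM-Cn-/- and 0.15 in WT, which did not pass. Its difference in response between the genotypes at 2 h was not called. Fn1, fibronectin, rose in CsA (0.97, adjusted p = 0.0096), with 0.84 in Cn-Ctl (adjusted p = 0.078).

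Of the 7 inhibitors and clearance factors tested, 1 was higher in Cn-Ctl at 2 h, 2 in CsA, and 0 in SM-Cn-/- and WT, with none lower, beside the shares of all genes given above. Timp1, a secreted inhibitor of metalloproteases, rose by 2.16 in Cn-Ctl (SE 0.54, limma, adjusted p = 0.016), and its value in SM-Cn-/- was 0.16 (adjusted p = 0.92). The difference in response of Timp1 between the genotypes at 2 h was not called. Timp3, the main inhibitor of the family in tissue, rose by 0.39 in CsA (adjusted p = 0.025), and Lrpap1, a chaperone of LRP1, by 0.27 (adjusted p = 0.025). Of the 5 activating proteases, Furin, a proprotein convertase, rose in WT by 0.34 (adjusted p = 0.017) and at 2 h was lower in SM-Cn-/- than in Cn-Ctl (-0.83, adjusted p = 0.0058). Mmp17, a membrane-type matrix metalloprotease, was lower in CsA than in WT at 2 h (-0.62, adjusted p = 0.046). Among the other ADAMTS genes, 5 of 12 were tested in the genotype experiment and 7 of 12 in the CsA experiment. Adamts6 fell at 2 h in Cn-Ctl (-1.15, adjusted p = 0.040) and in WT (-0.74, adjusted p = 0.0058), and Adamts10 fell in WT (-0.65, adjusted p = 0.0039). Adamtsl2, an ADAMTS-like matrix protein without protease activity, rose by 3.24 in Cn-Ctl (adjusted p = 2.4e-05) and 1.59 in WT (adjusted p = 0.0020), with 0.99 in SM-Cn-/- (adjusted p = 0.26) and 0.81 in CsA (adjusted p = 0.084). Its difference in response at 2 h was not called between the genotypes or between CsA and WT. Adamtsl2 was 1 of 6 ADAMTS-like genes called in Cn-Ctl (6.23% of all genes) and 1 of 7 in WT (21.4%) at 2 h, and Adamtsl5 was 1 of 7 in CsA (20.1%, with 0.50, adjusted p = 0.027).

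Genes with the pattern most like that of each member were ranked by the mean of 2 Pearson correlations of log2 values, over the 22 genotype libraries and the 18 CsA libraries, among 13432 genes present in both. Libraries of a group share a treatment, so that these values describe patterns and carry no test. The genes most like Adamts1 were Fosl2, an AP-1 subunit (mean r 0.957), Tsc22d2 (0.954) and Klf6, a zinc finger transcription factor (0.954), and those most like Adamts9 were Abi1 (0.886), Nr4a3, a nuclear receptor of the immediate early class (0.883), and Ube2d3 (0.878). Adamts2 was most like Col1a1, whose collagen product is a substrate of this enzyme (0.877), Adam9 (0.841) and Axl (0.834). Adamts4 was most like Xbp1, a transcription factor of the unfolded protein response (0.814), Pdpn (0.810) and Pdia6 (0.801), and Adamts8 like Csgalnact1, an enzyme of chondroitin sulfate synthesis (0.814), Tsc22d1 (0.802) and Mapre2 (0.801). The best matches were looser for Adamts5 (Dph5 0.719, Pole3 0.709 and Eogt 0.697) and Adamts15 (Tgfbr3 0.747, Aldh9a1 0.714 and Angpt1 0.706). Among the members, Adamts1 and Adamts9 correlated at 0.892 in the genotype and 0.838 in the CsA experiment, while the chromosomal neighbours did so at 0.0541 and -0.456 (Adamts1 and Adamts5) and at 0.300 and 0.251 (Adamts8 and Adamts15).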

How the data were processed

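The labels gave each library its line of mice and hours of Ang-II, and groups follow them. According to the labels and the methods, the authors combined 3 aortas in a library, sequenced oligo-dT libraries, and assigned reads to genes with RSEM 1.16 after alignment with Bowtie 0.12.7 (GRCm38 is named in the submitters' processing notes); the strand setting was not given in the sources used here. The deposited signal values are assigned reads plus 0.5 over a library size that the authors scaled; 100% of the values convert to whole reads within 0.01, so the authors' scaling is part of each value. The recovered reads served the alternatives that need counts.

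From these values, log2(signal + 0.5) of protein-coding genes with a signal of at least 1 in at least 2 libraries was fitted with limma 3.58.1 in R 4.3.3, all groups of an experiment in 1 model, with eBayes variances that follow the mean level and p-values adjusted by Benjamini-Hochberg across all genes tested, for 26 comparisons. Genes were annotated with GENCODE release 21, and lengths are the union of annotated exons. Assigned reads ranged from 2.73 M to 10.3 M (genotype; M, 1e6) and from 19.0 M to 38.9 M (CsA), so that 3 reads, the limit a count of 0 allows, correspond to a level of 0.293 to 1.10 and 0.0771 to 0.158 reads per 1e6. Replicates differed by more than sampling noise (chi-square per degree of freedom 6.21 or more). With at most 3 libraries a group, no exact permutation p can go under 0.10, so none is given.

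Alternatives were a pseudocount of 2, no filter with all biotypes, a stricter filter (signal of 5), quantile normalization, edgeR 4.0.16 and DESeq2 1.42.0 on recovered reads, a fit of the compared groups alone, a replicate block, and leaving out each library. Scripts were tested on simulated data. The members, the lists of related genes and the motifs were chosen with earlier results of these data known. Named genes were the 7 members in every comparison, up to 4 genes per list by smallest adjusted p among those called at 2 h of Ang-II, the 3 genes most like each member, and Ppp3r1; genes of the closing observations outside this rule were chosen after their values were seen. A result on another gene overlap is not reported here.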

Additional observations from a re-analysis of the deposited data

Results flagged for a closer look

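Adamts4 is singled out because the test of the difference itself was passed: its response to 24 h of Ang-II differed between CsA and WT by -1.87 on the log2 scale (SE 0.55, limma, adjusted p = 0.043; 0.0082 to 0.11 when 1 library was left out). The same test called 1 of 7 members and 9.42% of all genes, so that a pass is not particular to Adamts4. Its untreated level was higher in CsA (1.28 to 2.41 against 0.281 to 0.769) and the ranges at 24 h overlapped (1.50 to 5.95 against 3.93 to 7.21). With a pseudocount of 2 the difference was -1.10 (adjusted p = 0.059), and with quantile normalization -1.43 (adjusted p = 0.096). Groups of 2 or 3 libraries were too small for the search for single outlying libraries, so none was made.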

How the results depend on the processing

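Of the 45 member changes called, 26 kept their call in every alternative and leave-one-out fit, and none changed direction. Over the 8 alternatives 336 of 359 values kept their call and 23 lost it; over the fits without 1 library 194 of 261 kept it and 67 lost it, where an arm left with 1 library was assumed to vary like the other groups. Most calls that changed are given with their genes above. DESeq2 called 2 members in Cn-Ctl at 6 h against untreated, 4 in Cn-Ctl between 2 and 24 h (Adamts8 and Adamts15 added), 2 between the genotypes at 6 h, 1 in the genotype response at 2 h and 1 at 24 h, 1 between CsA and WT at 2 h, 1 in the CsA response at 2 h and 2 at 24 h. DESeq2 also called 3 between the genotypes at 2 h (Adamts15 added), 4 in CsA at 24 h against untreated (Adamts5 added) and 3 in CsA between 2 and 24 h (Adamts4 added). With the compared groups alone 0 were called in Cn-Ctl at 6 h, 1 in Cn-Ctl at 24 h, 0 between the genotypes at 6 h, 1 in CsA at 24 h and 2 in the CsA response at 24 h. Quantile normalization left 0 in untreated CsA against WT. It moved the median of all genes by less than 0.1 in every comparison, but single members by more. Under it Adamts2 in Cn-Ctl at 2 h went from 0.99 to 0.70 and Adamts5 in WT at 2 h from -0.24 to -0.36. Over the 8 alternatives the 2 h rise of Adamts1 was 2.14 to 2.62 in Cn-Ctl and 1.62 to 2.07 in WT, and stayed called. The size of the 2 h changes thus depends in part on the scaling. The pseudocount of 2 and the stricter filter each left 0 in the CsA response at 24 h, and the stricter filter gave 1 between CsA and WT at 2 h. Adamts4 failed the stricter filter in the genotype experiment and has no value there.

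Leaving out 1 library gave counts of 0 to 1 in Cn-Ctl at 6 h, 0 to 2 in Cn-Ctl at 24 h, 1 to 3 in Cn-Ctl between 2 and 24 h, 1 to 3 between the genotypes at 2 h, 0 to 3 at 6 h and 1 to 3 at 24 h, 0 to 1 in the genotype response at 24 h, 1 to 3 in CsA at 24 h, 0 to 3 in untreated CsA against WT, 0 to 1 between CsA and WT at 2 h and 0 to 2 in the CsA response at 24 h. The replicate block gave 1 in untreated CsA against WT, where Adamts2 and Adamts4 were lost (adjusted p = 0.058 for both), and 0 in the CsA response at 24 h (Adamts4 lost), and it lost Adamts9 in CsA at 24 h (0.051). The stricter filter lost Adamts4 in untreated CsA against WT (0.059) and in the CsA response at 24 h (0.063). Not every pair of libraries with the same number correlated above 0.1 (27 of 71 in the genotype experiment, median 0.0587, against -0.0419 between different numbers; 11 of 45 in the CsA experiment, median -0.0283, against -0.0129), so that the samples were taken to share only a number. As a hint from the data, not the design, 13 of 22 and 5 of 18 libraries correlated best with their own number. Depth limits Adamts4 most, at 0 to 27 reads per library in the genotype experiment.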

Other observations

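At 24 h in WT aortas genes of the rest of the family and its partners were called in both directions, in a comparison that called 35.0% of all genes. Of 7 other ADAMTS genes tested, 2 were higher, among them Adamts12, a cartilage matrix protease (1.25, limma, adjusted p = 1.9e-05), and 1 lower, Adamts10 (-0.98, adjusted p = 8.8e-05). Of 7 ADAMTS-like genes 1 was higher and 4 lower, with the largest fall in Adamtsl3 (-1.32, adjusted p = 2.1e-06). Of 20 substrates and partners 8 were higher, with Thbs1 at 3.44 (adjusted p = 5.6e-06), and 2 lower, with Hapln1, the link protein that joins hyaluronan and proteoglycans, at -2.10 (adjusted p = 0.00010). Timp1 rose by 4.39 in WT (adjusted p = 2e-07), from a mean signal of 8.56 ± 2.19 to 202 ± 106 (SD, n = 3, limma). In CsA it rose by 1.73 (adjusted p = 0.0031), from 12.1 ± 2.78 to 41.0 ± 8.16 (SD, n = 3, limma). Its response was smaller in CsA (-2.66, adjusted p = 0.0034). In the genotype experiment its response at 24 h was smaller in SM-Cn-/- than in Cn-Ctl (-3.44, adjusted p = 0.042). In WT at 24 h 6 of 6 macrophage markers were also higher, and their part in these values was not tested. Except for Timp1, Thbs1 and Adamts10, these genes were picked from the lists after their values were seen.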
